A study of Mus musculus with 12 samples.

Results

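The 10 genes described here write, read or remove methylation of histone H3 at lysine 9 (H3K9), the mark of silent heterochromatin, in primordial germ cells (PGCs) of the mouse embryo, from which eggs and sperm arise. They are the methyltransferase genes Suv39h1, Suv39h2, Ehmt1, Ehmt2 and Setdb1, the co-repressor gene Trim28, the genes of the HP1 proteins Cbx1, Cbx3 and Cbx5, and the demethylase gene Kdm3a. They were taken by name, and all 10 have a row in each of the 4 deposited tables, among 22552 rows in each stage table and 16394 rows in the knockout table. A further 51 genes of the same pathway, in 4 lists, were followed beside them.

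H3K9 methylation is laid down by several enzymes with separate duties. SUV39H1 and SUV39H2 place the trimethyl mark at the repeats around centromeres. EHMT1 (GLP) and EHMT2 (G9a) work as a heterodimer and place the mono- and dimethyl marks in euchromatin. SETDB1 is brought to transposons and imprinted regions by TRIM28 (KAP1), which itself is recruited by KRAB zinc finger proteins. The HP1 proteins CBX1 (HP1 beta), CBX3 (HP1 gamma) and CBX5 (HP1 alpha) bind the methylated lysine, and KDM3A removes mono- and dimethyl groups. Mouse PGCs are known for a loss of H3K9 dimethylation during migration and for a later reorganisation of heterochromatin in the gonad, while their DNA is demethylated.

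All cells were PGCs of the C57BL/6 strain, and 12 libraries of total RNA were amplified with a low-input kit. The stage set is wild type and holds 2 libraries of embryonic day 9.5 (E9.5), 2 of E11.5 and 3 of E13.5, the last named E13.5m, with 400 to 5000 cells behind each RNA sample. A second set, from 500 to 2000 cells each, compared wild-type cells (WT, 3 libraries) with Tet1 -/- cells (Tet1-KO, 2 libraries) at E13.5, where Tet1 encodes an enzyme that oxidises 5-methylcytosine. The stage tables also hold a group named E13.5f, which the design text describes as a triplicate and which no sample title carries. How the cells were purified, whether embryos were pooled, and whether the replicates of a group trace back to different embryos are not given in the sources used here. The p-values therefore speak for these libraries only, and any variation between the libraries may be technical.

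Each table gives 1 FPKM value (fragments scaled to transcript length and to sequencing depth) per group, pooled over its libraries. No level therefore has a spread over libraries, and the depth is unknown. Each log2 ratio carries a standard error (SE), which is derived from the authors' deposited test. A gene is called when the authors' deposited q-value or false discovery rate (FDR) is below 0.05.

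The knockout label was checked on Tet1 itself, which was at 6.36 FPKM in WT and 0.218 FPKM in Tet1-KO (log2 ratio -4.87 ± 0.67, SE; FDR 1.55e-10 in the authors' deposited table). All 10 germ cell markers examined reached 1 FPKM or more in each of the 6 groups, but their levels were not even. Dazl was at 2.24 FPKM at E9.5 and 355 at E11.5 on the scale of that comparison. From WT to Tet1-KO, Dazl was called lower (1491 and 671 FPKM). Tfap2c (122 and 226 FPKM) and Sox2 (23.7 and 67.3 FPKM) were called higher. The part of these differences in the values of the 10 genes was not tested. Markers of other cells were not even across groups either. The summed FPKM of 10 blood markers was 1889 at E9.5, 28.1 at E11.5, 5.39 at E13.5f and 37.1 at E13.5m, and Ptprc, which marks all white blood cells, was at 0 in each of these. Nearly all of the E9.5 sum came from the globin genes Hbb-y, Hba-x, Hbb-bh1 and Hba-a1. At E9.5 the median of the 10 blood markers was 3.98 FPKM, and Csf1r and Lyz2 were also at 0. Of 10 markers of gonadal somatic cells, the sum was 0.516 at E9.5, 3.06 at E11.5, 2.39 at E13.5f and 23.0 at E13.5m. The knockout table has rows for 7 of these gonadal markers, with sums of 2.33 in WT and 6.55 in Tet1-KO, and for 4 blood markers, with 3.58 and 1.16. For 11 markers of endothelial, mesenchymal and epithelial cells the sums ran from 67.8 to 142 FPKM over the 4 stage groups. The knockout table has rows for 9 of them, with sums of 149 in WT and 158 in Tet1-KO. Pecam1 and Krt18 made up most of each sum, for example 61.5 and 20.1 of 97.7 FPKM at E11.5. The other endothelial genes were at 0.289 (Cdh5), 0 (Kdr) and 8.81 FPKM (Esam) at E11.5. The sums therefore mainly follow Pecam1 and Krt18 and do not measure the share of other cells. The median of the list ran from 0.00482 to 0.894 FPKM over the 6 groups. The E13.5f column lay very close to the WT column of the knockout table: over 7956 genes at 5 FPKM or more in both, the median ratio of WT to E13.5f was 1.04, and 96.4% of genes lay within 10% of it. Against E13.5m, 25.9% of 7257 genes lay within 10% of their median ratio of 1.17. Among the 10 genes, 8 lay within 10% of the median ratio of WT to E13.5f, and Cbx3 (0.886) and Setdb1 (1.3) lay outside. Whether the E13.5f and WT columns rest on the same libraries is not stated, so the comparison of E11.5 with E13.5f and that of WT with Tet1-KO are not treated as independent.

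Promoter windows of 250 bases before to 50 bases after the annotated start were taken from RefSeq (GRCm38.p6), which matched 10 of 10 genes with 16 windows. The windows of Ehmt1 and Ehmt2 are shown because these genes encode the partners of 1 heterodimer and Ehmt1 alone of the 10 was called in the Tet1 knockout. That call was lost relative to the median log2 ratio of the comparison, as given further on. TET1 acts on methylated cytosines, which in mammals lie mostly in CG dinucleotides, so each CG is in capitals.
Ehmt1, chr2:24919560-24919859, minus strand: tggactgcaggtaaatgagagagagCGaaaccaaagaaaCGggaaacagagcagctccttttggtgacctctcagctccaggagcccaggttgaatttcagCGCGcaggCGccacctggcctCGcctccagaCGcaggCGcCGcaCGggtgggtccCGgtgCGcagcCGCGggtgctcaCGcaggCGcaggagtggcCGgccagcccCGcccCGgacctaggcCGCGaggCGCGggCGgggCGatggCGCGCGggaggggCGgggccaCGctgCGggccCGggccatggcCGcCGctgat
Ehmt2, chr17:34898224-34898523, plus strand: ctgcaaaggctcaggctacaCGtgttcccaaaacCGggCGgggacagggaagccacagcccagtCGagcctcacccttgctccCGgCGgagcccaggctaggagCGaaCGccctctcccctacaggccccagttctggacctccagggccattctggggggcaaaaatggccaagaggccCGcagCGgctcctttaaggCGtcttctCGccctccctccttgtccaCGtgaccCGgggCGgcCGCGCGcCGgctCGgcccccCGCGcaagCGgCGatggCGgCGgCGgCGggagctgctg
The Ehmt1 window holds 34 CG dinucleotides, more than 92.3% of the 32851 windows of that length in the table. The Ehmt2 window holds 28, more than 85.8%, and a second Ehmt2 start, at 34898720 to 34899019, holds 40. Among genes that were not called, a window of Cbx3 holds 34, 1 of Suv39h1 37 and 1 of Kdm3a 40. Those of Setdb1 (15), Cbx1 (22) and Trim28 (23) hold fewer than that of Ehmt1. Whether the CG content bears on the Ehmt1 value was not tested. Over the 16 windows the number of CG dinucleotides ran from 0 to 40, with a median of 28.5 against 7 over all windows. The least CG-rich was a further start of Kdm3a (chromosome 6, 71609090 to 71609389), with 0. The GC box GGGCGG, searched on both strands, occurred in 14 of the 16 windows and in at least 1 window of all 10 genes, against 35.7% of all windows. The E-box CACGTG, searched likewise, occurred in 3 windows, of Cbx5 and Ehmt2, against 7.15% of all windows. These matches describe the letters in the windows and are no evidence of a bound factor.

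The following levels are FPKM, which is per transcript length and allows genes to be compared. E11.5 has a column in all 3 stage tables and its values there differ only by a constant, so the E9.5 values were multiplied by 0.870 and the E13.5m values by 0.976 to bring them to the scale of the E13.5f table. The knockout table keeps its own scale. Neighbouring levels in an order cannot be tested beyond the comparisons given further on.

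Suv39h1, on the X chromosome (7638296 to 7651886, build mm9), was at 39.9 FPKM at E9.5, 85.8 at E11.5, 162 at E13.5f and 103 at E13.5m. It was at 172 FPKM in WT and 99.5 in Tet1-KO. Its lowest stage value was that of E9.5 and its highest that of E13.5f, a 4.07-fold span that was the widest of the 10 genes. Its relative Suv39h2 (chromosome 2, 3341402 to 3392258) was at 19.9, 22.9, 35.9 and 35.5 FPKM in the same order of stages, and at 37.6 in WT and 32.4 in Tet1-KO. Suv39h1 lay above Suv39h2 in each of the 6 groups. The ratio of Suv39h1 to Suv39h2 was 2.00 at E9.5, 3.75 at E11.5, 4.52 at E13.5f and 2.91 at E13.5m, and 4.56 in WT and 3.07 in Tet1-KO. The Suv39h2 locus overlaps Dclre1c in the files' coordinates and the libraries' strand is not stated, so reads of this pair may not be separable.

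Ehmt1 (chromosome 2, 24646293 to 24775110) had the lowest level of all 10 genes at E9.5, 5.12 FPKM, and also at E11.5, 6.34 FPKM. At E13.5f it was at 14.7 FPKM, at E13.5m at 9.17, in WT at 15.3 and in Tet1-KO at 7.74. Ehmt2 (chromosome 17, 35035443 to 35050992) stayed within a narrower band, at 15.5, 17.9, 20.9 and 16.8 FPKM over the stages, 21.7 in WT and 16.3 in Tet1-KO. Ehmt2 lay above Ehmt1 in each of the 6 groups, by a ratio of 3.02 at E9.5, 2.82 at E11.5, 1.42 at E13.5f, 1.83 at E13.5m, 1.42 in WT and 2.10 in Tet1-KO. Ehmt1 thus made up 24.9% of the summed FPKM of the pair at E9.5 and 41.3% at E13.5f.

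Setdb1 (chromosome 3, 95119173 to 95161124) was at 8.27 FPKM at E9.5, 14.9 at E11.5, 12.5 at E13.5f and 11.3 at E13.5m, and at 16.3 in WT and 15.6 in Tet1-KO. Its locus overlaps Lass2. Trim28 (chromosome 7, 13609500 to 13616381), which brings SETDB1 to its targets, was the highest of the 10 genes in every group: 434 FPKM at E9.5, 623 at E11.5, 431 at E13.5f, 488 at E13.5m, 452 in WT and 566 in Tet1-KO. It lay above 98.1% or more of the genes with a completed test in each column of the 4 tables. Per length, Trim28 was 27.8 times Setdb1 in WT and 52.5 times at E9.5, the ends of the range over the 6 groups.

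**Figure D1:**
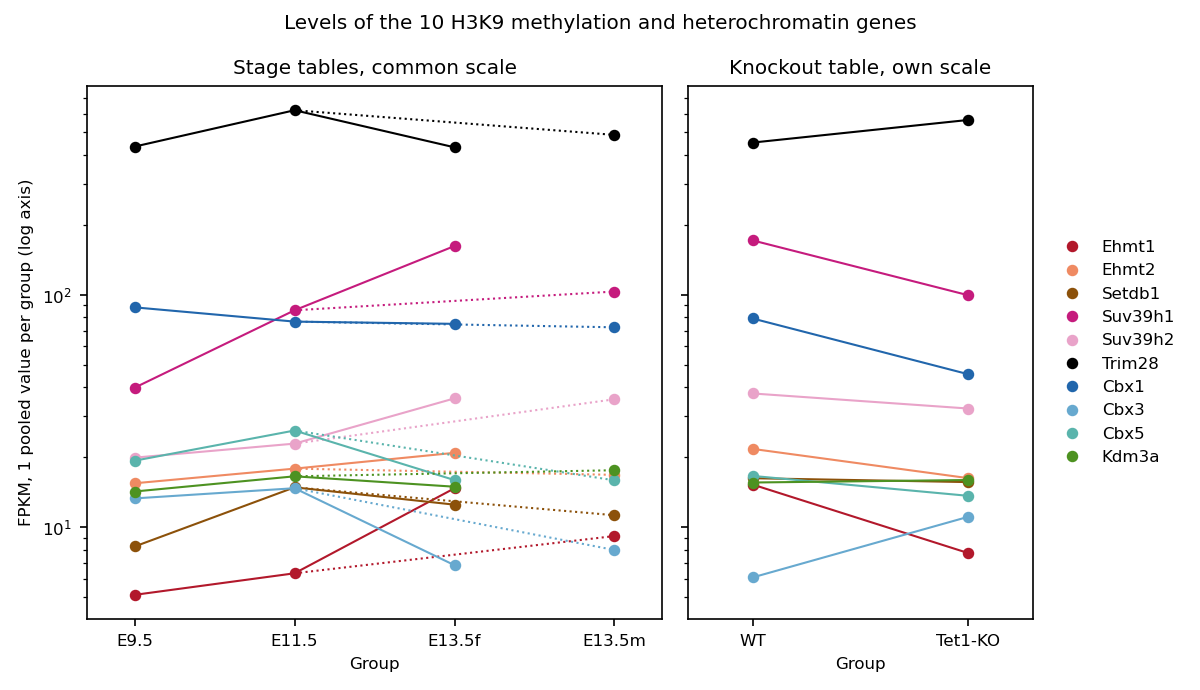
Levels of the 10 genes as FPKM on a log axis, 1 pooled value per group with no error bar; left, E9.5, E11.5, E13.5f and E13.5m on the scale of the E13.5f table (solid lines to E13.5f, dotted lines to E13.5m), right, WT and Tet1-KO on their own scale. Trim28 lies highest in all 6 groups, Suv39h1 spans 39.9 to 162 FPKM over the stages, and Ehmt1 is at 15.3 in WT and 7.74 in Tet1-KO.

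The HP1 genes kept 1 order in all 6 groups, with Cbx1 above Cbx5 above Cbx3. Cbx1 (chromosome 11, 96650449 to 96669954; its locus overlaps Gm11517) was at 88.3 FPKM at E9.5, 76.7 at E11.5, 75.0 at E13.5f and 72.5 at E13.5m, a 1.22-fold span that was the narrowest of the 10 genes over the stages. In WT it was at 79.1 FPKM and in Tet1-KO at 45.5. Cbx5 (chromosome 15, 103021976 to 103070247) was at 19.3, 26.1, 16.0 and 15.9 FPKM over the stages, and at 16.6 in WT and 13.7 in Tet1-KO. Cbx3 (chromosome 6, 51420614 to 51433703) was at 13.3, 14.7, 6.87 and 7.98 FPKM over the stages, and at 6.08 in WT and 11.1 in Tet1-KO. Cbx1 made up 65.3% of the summed HP1 FPKM at E11.5 and 76.7% at E13.5f, while Cbx3 made up 12.5% and 7.02%. In WT, Cbx3 made up 5.97% of that sum and in Tet1-KO 15.8%. Cbx3 has annotated pseudogenes that can share reads with it, and how such reads were counted is not given in the sources used here, so its level is uncertain to that extent.

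Kdm3a (chromosome 6, 71538965 to 71582899), the demethylase, was at 14.3 FPKM at E9.5, 16.6 at E11.5, 14.9 at E13.5f and 17.6 at E13.5m, and at 15.6 in WT and 16.0 in Tet1-KO. Its levels spanned 1.23-fold over the stages.

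The 5 methyltransferase genes summed to 88.6 FPKM at E9.5, 148 at E11.5, 246 at E13.5f and 176 at E13.5m. The HP1 genes summed to 121, 118, 97.8 and 96.4 FPKM in the same order. Suv39h1 made up 45.0% of the methyltransferase sum at E9.5 and 65.9% at E13.5f, so the span of that sum was mostly a span of Suv39h1. WT and Tet1-KO had methyltransferase sums of 262 and 172 FPKM and HP1 sums of 102 and 70.3 FPKM. In bulk RNA, fewer cells of a type and less RNA per cell cannot be told apart.

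**Figure D2:**
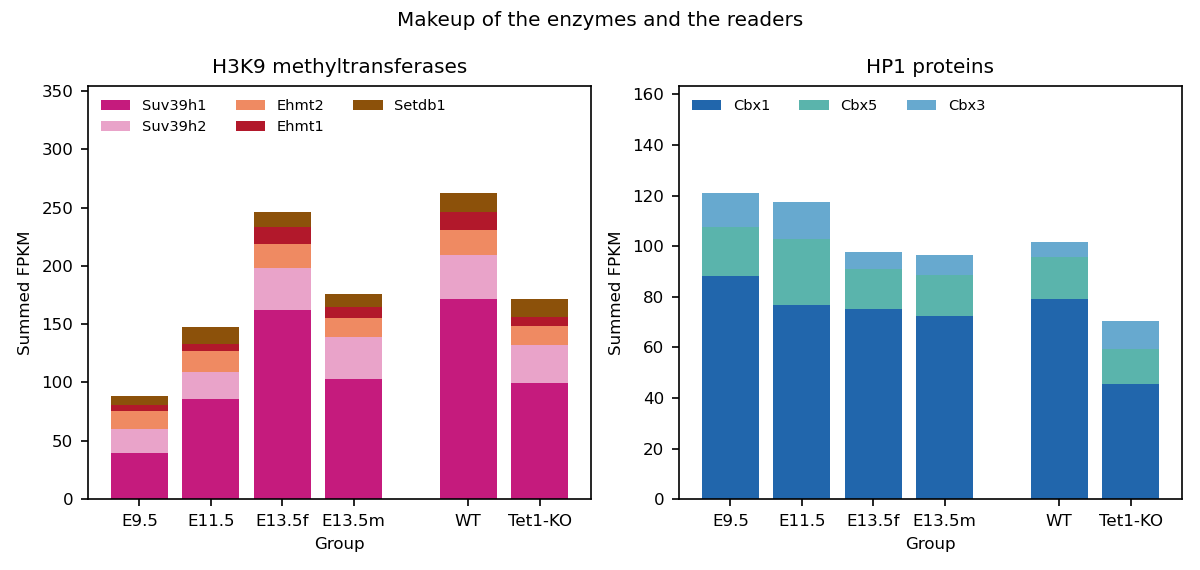
Stacked bars of summed FPKM from 0, 1 pooled value per gene and group and no error; left, the 5 methyltransferase genes, right, the 3 HP1 genes, with E9.5 to E13.5m on the common scale and WT and Tet1-KO on their own. Suv39h1 fills 45.0% of the left bar at E9.5 and 65.9% at E13.5f, and Cbx1 fills most of every right bar.

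From E9.5, when the cells migrate, to E11.5, when they have entered the gonad, none of the 10 genes was called in the authors' deposited table: 0 of 10 tested, where 5.63% of 12904 tested genes were called. The largest difference was that of Suv39h1, at 45.8 FPKM at E9.5 and 98.7 at E11.5 on that table's scale. Its log2 ratio was 1.11 ± 0.45 (SE; 95% interval 0.23 to 1.98), with q = 0.132 in the authors' deposited table. Setdb1 came nearest to a call, at 9.50 and 17.1 FPKM, a log2 ratio of 0.85 ± 0.29 (SE; 95% interval 0.27 to 1.42) with q = 0.0596 in the authors' deposited table. These 2 were the only ones of the 10 with an unadjusted p below 0.05, which 19.8% of all tested genes reached. Trim28 was at 499 and 716 FPKM (log2 ratio 0.52 ± 0.45, SE), and the interval of its log2 ratio ran from -0.36 to 1.40.

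The other 7 genes had log2 ratios between -0.20 and 0.43. Cbx5 was at 22.2 and 30.0 FPKM (log2 ratio 0.43 ± 0.24, SE), and Ehmt1 was at 5.89 and 7.29 FPKM (0.31 ± 0.50, SE). Ehmt2, Suv39h2, Kdm3a and Cbx3 had log2 ratios from 0.15 to 0.22, and Cbx1 was the only gene with a lower value at E11.5, 88.2 against 102 FPKM (log2 ratio -0.20 ± 0.49, SE). The whole table was shifted upward, with a median log2 ratio of 0.32 over genes that reached 1 FPKM in both groups. Relative to that median 4 of the 10 genes lay above and 6 below, and Ehmt1, Ehmt2, Suv39h2, Cbx3 and Kdm3a changed sign. Suv39h1 was then at 0.79 (adjusted p 0.418 in the centred test) and Setdb1 at 0.53 (adjusted p 0.398). The median change in log2(FPKM + 1) was 0.24 over the 10 genes and 0.29 over all tested genes. The interval of Cbx3 was the widest of the 10, from -1.12 to 1.42, and that of Ehmt1 ran from -0.68 to 1.29. The blood marker sum, 1889 FPKM at E9.5 (nearly all globin) and 28.1 at E11.5, moved between the same groups, and its part in these values was not tested.

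From E11.5 to E13.5f none of the genes was called either, 0 of the 8 with a completed test, where 12.0% of 12448 tested genes were called. Both SUV39 genes were at higher values at E13.5f and were the only ones with an unadjusted p below 0.05, which 26.5% of tested genes reached. Suv39h1 was at 85.8 and 162 FPKM, a log2 ratio of 0.92 ± 0.39 (SE; 95% interval 0.16 to 1.68), with q = 0.103 in the authors' deposited table. Suv39h2 was at 22.9 and 35.9 FPKM, a log2 ratio of 0.65 ± 0.33 (SE; 95% interval 0.01 to 1.29), with q = 0.185 in the authors' deposited table. The X chromosome, where Suv39h1 lies, had a median log2 ratio of 0.48 over 343 genes in that table, against 0.18 over 8753 autosomal genes. Its part in the Suv39h1 value was not tested.

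Cbx3 had the largest difference in the other direction, at 14.7 and 6.87 FPKM, a log2 ratio of -1.10 ± 0.62 (SE; 95% interval -2.31 to 0.11). Trim28 was at 623 and 431 FPKM (log2 ratio -0.53 ± 0.42, SE). Setdb1, Kdm3a, Cbx1 and Ehmt2 had log2 ratios from -0.25 to 0.23. Ehmt1 was at 6.34 and 14.7 FPKM, a log2 ratio of 1.22 and the largest of the 10, and Cbx5 was at 26.1 and 16.0 FPKM, a log2 ratio of -0.71. For these 2 genes the deposited status is FAIL, with no completed test, as for 1262 of the 22552 rows, so neither value has an error. Relative to the table's median log2 ratio of 0.19, 3 of the 8 tested genes lay above. Suv39h1 was then at 0.73 (adjusted p 0.233 in the centred test) and Suv39h2 at 0.46 (adjusted p 0.408). Cbx3, at -1.29 (adjusted p 0.169), was the only 1 with an unadjusted p below 0.05 in that test. The median change in log2(FPKM + 1) was -0.09 over the 8 tested genes and 0.22 over all tested genes.

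From E11.5 to E13.5m the count was 0 of 7 genes with a completed test, where 4.88% of 12311 tested genes were called, and none of the 7 had an unadjusted p below 0.05, which 17.2% of tested genes reached. Suv39h2 had the largest difference upward, at 23.5 FPKM at E11.5 and 36.4 at E13.5m, a log2 ratio of 0.63 ± 0.35 (SE; 95% interval -0.06 to 1.33). Suv39h1 was at 87.9 and 106 FPKM (log2 ratio 0.27 ± 0.41, SE). Cbx3 was at 15.1 and 8.18 FPKM, a log2 ratio of -0.88 ± 0.64 (SE; 95% interval -2.14 to 0.37). Setdb1 had a log2 ratio of -0.40 ± 0.39 and Trim28 of -0.35 ± 0.44 (SE), and those of Cbx1 and Kdm3a were -0.08 and 0.09. Tests were not completed for Ehmt1, at 6.49 and 9.39 FPKM, Ehmt2, at 18.3 and 17.2, and Cbx5, at 26.7 and 16.3. The median change in log2(FPKM + 1) was -0.08 over the 7 genes and 0.05 over all tested genes, and the table's median log2 ratio was 0.02. The summed gonadal markers, 3.06 FPKM at E11.5 and 23.0 at E13.5m, moved between the same groups, and their part was not tested. Both comparisons with E11.5 share their E11.5 libraries, so the like values of Suv39h2 and Cbx3 in the 2 tables are not separate evidence.

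**Figure D3:**
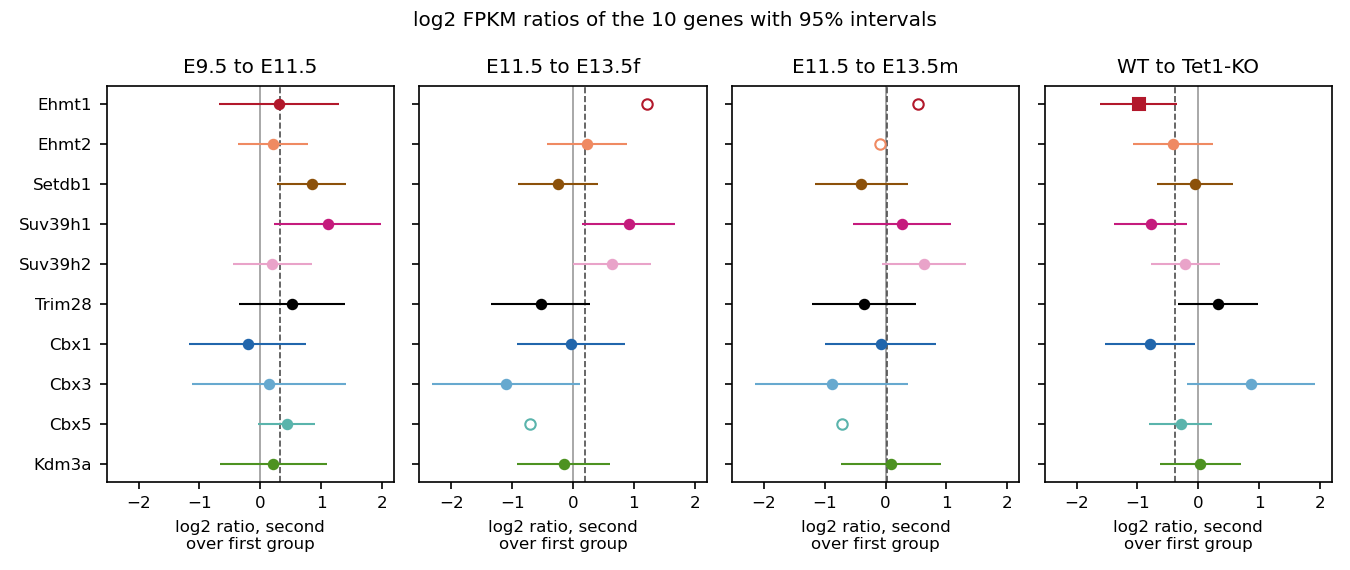
log2 FPKM ratios of the 10 genes in the 4 comparisons (second over first group) with 95% intervals from the implied SE; the dashed line is the table's median log2 ratio, open circles have no completed test and no error, and the square marks the called gene. Only the Ehmt1 value of WT to Tet1-KO, -0.98, is called, and its interval reaches past the dashed line at -0.38.

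E13.5m and E13.5f were compared through the difference of their log2 ratios to E11.5, tested with a normal two-sided test. The 7 genes with both errors gave 0 calls and 0 with an unadjusted p below 0.05, where 18 of 10677 genes, 0.169%, were called after Benjamini-Hochberg adjustment and 3.76% had such a p. The largest difference was that of Suv39h1, at 162 FPKM at E13.5f and 103 at E13.5m, which is -0.65 ± 0.57 on the log2 scale (SE; 95% interval -1.76 to 0.46; E13.5m minus E13.5f). The other 6 genes differed by -0.15 to 0.24. Their intervals are wide, for example -1.16 to 0.86 for Setdb1 and -1.53 to 1.96 for Cbx3, so sizeable differences between these groups were not detectable. The shared E11.5 error is counted in both ratios, which widens the intervals. Ehmt1, Ehmt2 and Cbx5 have no completed test in 1 or both tables. Ehmt1 was at 14.7 FPKM at E13.5f and 9.17 at E13.5m, and Ehmt2 at 20.9 and 16.8. X-linked genes had a median log2 ratio of 0.48 from E11.5 to E13.5f and -0.06 from E11.5 to E13.5m. Autosomal genes had 0.18 and 0.02. The part of the X chromosome in the Suv39h1 difference was not tested.

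In Tet1-KO against WT cells at E13.5, Ehmt1 fell, and it was the only called gene of the 10. The authors' deposited table called 6.16% of its 16394 tested genes, with 0.677% higher and 5.48% lower in Tet1-KO, and 1 of the 10 genes. Ehmt1, which encodes GLP, the partner of G9a, was at 15.3 FPKM in WT and 7.74 FPKM in Tet1-KO. Its log2 ratio was -0.98 ± 0.32 (SE; 95% interval -1.61 to -0.35), or 0.507 of the WT level (95% interval 0.328 to 0.783), with FDR 0.0401 in the authors' deposited table. Its partner Ehmt2 was at 21.7 and 16.3 FPKM, a log2 ratio of -0.42 ± 0.34 (SE; 95% interval -1.08 to 0.24), with FDR 0.463 in the authors' deposited table. Whether the Ehmt1 and Ehmt2 ratios differ from each other was not tested.

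The Ehmt1 call depends on how the table is centred. Over genes that reached 1 FPKM in both groups the median log2 ratio was -0.38. Tested relative to that median, with Benjamini-Hochberg adjustment over 13751 genes of which 3.56% were called, Ehmt1 was at -0.60 with an adjusted p of 0.344. The call was kept with rows under 1 FPKM left out (adjusted p 0.0298) and was lost at a threshold of 0.01 and with a minimum log2 change of 1.

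With Ehmt1, 3 of the 10 genes had an unadjusted p below 0.05, where 21.4% of tested genes had one. Suv39h1 was at 172 and 99.5 FPKM, a log2 ratio of -0.78 ± 0.30 (SE; 95% interval -1.38 to -0.19), with FDR 0.0962 in the authors' deposited table. Cbx1 was at 79.1 and 45.5 FPKM, a log2 ratio of -0.80 ± 0.38 (SE; 95% interval -1.54 to -0.06), with FDR 0.192 in the authors' deposited table. Relative to the table's median, Suv39h1 was at -0.41 (adjusted p 0.553) and Cbx1 at -0.42 (adjusted p 0.653). In that centred test only Cbx3 and Trim28, both higher, had an unadjusted p below 0.05. X-linked genes had a median log2 ratio of -0.34 in this table and autosomal genes one of -0.38. The gonadal marker sum, 2.33 FPKM in WT and 6.55 in Tet1-KO, moved between the same groups, and its part in these values was not tested. Of the 7 genes in that sum, 0 reached 1 FPKM in WT and 2 did in Tet1-KO. None of them was called, and only Star was lower in Tet1-KO.

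Higher values in Tet1-KO were listed for 3 of the 10 genes, none of them called. Cbx3 was at 6.08 and 11.1 FPKM, a log2 ratio of 0.87 ± 0.54 (SE; 95% interval -0.19 to 1.93), which relative to the table's median is 1.25 with an adjusted p of 0.203. Trim28 was at 452 and 566 FPKM, a log2 ratio of 0.32 ± 0.33 (SE), which relative to the median is 0.70 with an adjusted p of 0.26. Kdm3a was at 15.6 and 16.0 FPKM (log2 ratio 0.04 ± 0.34, SE). Setdb1, Suv39h2 and Cbx5 had log2 ratios of -0.06, -0.22 and -0.28, and all of them changed sign relative to the median. The median change in log2(FPKM + 1) was -0.24 over the 10 genes and -0.21 over all tested genes. Subtracting the table's median log2 ratio of -0.38, which is taken without the added 1, brought the 10 genes to 0.14. The same subtraction applies to all tested genes, so the 10 genes kept their place beside them.

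**Figure D4:**
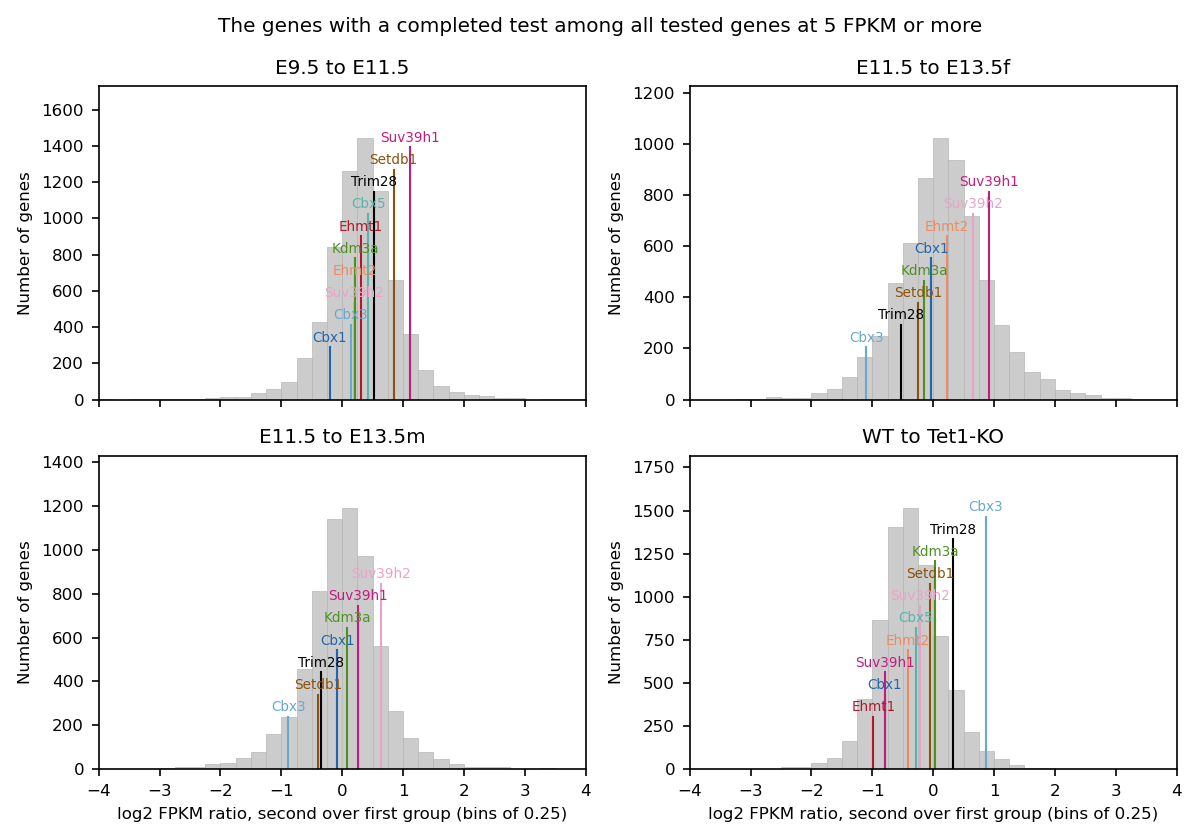
Grey bars count all tested genes with at least 5 FPKM in each group by log2 FPKM ratio in bins of 0.25, and coloured lines mark the ratios of the genes with a completed test (line height has no meaning). The lines fall within the range of the grey bars in all 4 comparisons, and the WT to Tet1-KO bars are centred below 0.

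The size of the differences was set beside that of all genes reaching 5 FPKM in both groups of a table, the 10 genes included, with no test of the contrast. Over the 10 listed values the median absolute log2 ratio was 0.26 from E9.5 to E11.5, where all genes at that level had 0.43. From E11.5 to E13.5f it was 0.59 against 0.46, from E11.5 to E13.5m 0.38 against 0.35, and from WT to Tet1-KO 0.37 against 0.47. Genes with a completed test alone gave 0.39 against 0.46 for E13.5f, since Ehmt1 and Cbx5 drop out there, and 0.35 against 0.35 for E13.5m. The median SE of the tested members of the 10 was 0.45, 0.39, 0.42 and 0.33 in the same order.

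Because Ehmt1 was called, the genes whose 4 changes in log2(FPKM + 1) were nearest to its own were looked up by Euclidean distance among 7811 genes at a mean of 5 FPKM or more. They were Esco1, a cohesin acetyltransferase gene, at a distance of 0.0931, Chst12, a carbohydrate sulfotransferase gene, at 0.107, and Cd9, a tetraspanin gene, at 0.149, where the median distance was 1.45. Esco1 was at 13.2 FPKM at E11.5, 29.0 at E13.5f, 30.2 in WT and 14.9 in Tet1-KO. None of these 3 genes was called in any of the 4 tables. The likeness rests on 4 changes, of which those to E13.5f and from WT use columns that lay very close to each other. The Ehmt1 changes to E13.5f and to E13.5m, also among the 4, have no completed test.

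Of the 51 further pathway genes, at most 6 were called in any comparison, given below beside the share of all tested genes. From E9.5 to E11.5, 4 of 47 tested were higher and 0 lower, where 3.71% of all tested genes were higher and 1.92% lower. Cdyl2, a chromodomain gene, rose from 4.45 to 22.4 FPKM (log2 ratio 2.33 ± 0.71, SE). Suv420h1, which methylates lysine 20 of histone H4 downstream of HP1, rose from 16.1 to 31.5 FPKM (0.97 ± 0.23, SE). Zfp809, a KRAB zinc finger gene that brings TRIM28 to proviruses, rose from 4.18 to 9.38 FPKM (1.17 ± 0.34, SE), and Fam208a of the HUSH silencing complex, listed as D14Abb1e, rose from 4.39 to 9.65 FPKM (1.14 ± 0.30, SE). Relative to the table's median none of the 4 was called, with adjusted p-values of 0.0785, 0.0791, 0.141 and 0.091. The median change in log2(FPKM + 1) was 0.33 over the tested pathway genes, beside 0.29 over all tested genes.

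From E11.5 to E13.5f, 1 of 41 tested pathway genes was higher and 2 were lower, where 9.34% of all tested genes were higher and 2.68% lower. Cdyl, a chromodomain corepressor gene whose protein binds EHMT2 and H3K9 methylation, fell from 65.0 to 10.7 FPKM (log2 ratio -2.60 ± 0.39, SE; q = 1.09e-08 in the authors' deposited table). Kdm4c, which removes H3K9 trimethylation, fell from 5.09 to 1.74 FPKM (-1.55 ± 0.55, SE). Phf8, an X-linked demethylase gene, rose from 1.49 to 6.82 FPKM (2.20 ± 0.43, SE). These 3 calls were kept relative to the table's median, and Kdm4a was called there as well. From E11.5 to E13.5m, 0 of 40 tested were called, where 2.94% of all tested genes were higher and 1.94% lower, and 8 of the 40 had an unadjusted p below 0.05, which 17.2% of all tested genes reached. Cdyl was at 66.6 and 6.96 FPKM in that table, with no completed test, and Phf8 at 1.52 and 3.72 (log2 ratio 1.29 ± 0.45, SE). Between E13.5m and E13.5f 0 of 33 pathway genes were called. The only gene with an unadjusted p below 0.05, named after its value was seen, was the chromatin remodeller gene Chd3, at 3.27 FPKM at E13.5f and 0.656 at E13.5m (-2.32 ± 0.95, SE; adjusted p 0.938).

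From WT to Tet1-KO, 2 of 50 tested pathway genes were higher and 4 lower, where 0.677% of all tested genes were higher and 5.48% lower. Cdyl rose from 11.1 to 25.9 FPKM (log2 ratio 1.22 ± 0.35, SE), and Trim33, a relative of TRIM28, rose from 5.05 to 11.4 FPKM (1.18 ± 0.32, SE). Suv420h2, which trimethylates lysine 20 of histone H4 in heterochromatin, fell from 81.6 to 39.4 FPKM (-1.05 ± 0.29, SE). Chaf1b, a subunit of the chromatin assembly factor CAF-1, fell from 109 to 56.1 FPKM (-0.96 ± 0.32, SE). Phf8 fell from 7.10 to 2.52 FPKM (-1.49 ± 0.44, SE) and Kdm4d, an H3K9 demethylase gene, from 2.14 to 0.144 FPKM (-3.89 ± 1.24, SE). Relative to the table's median the 4 lower calls were lost, those of Cdyl and Trim33 were kept, and Kdm1a, at 22.9 and 41.8 FPKM, was called higher, making 3 higher and 0 lower. Cdyl and Phf8 were called in opposite directions from E11.5 to E13.5f and from WT to Tet1-KO, in tables whose E13.5f and WT columns lay very close to each other. The median change in log2(FPKM + 1) was -0.26 over the pathway genes and -0.21 over all tested genes.

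**Figure D5:**
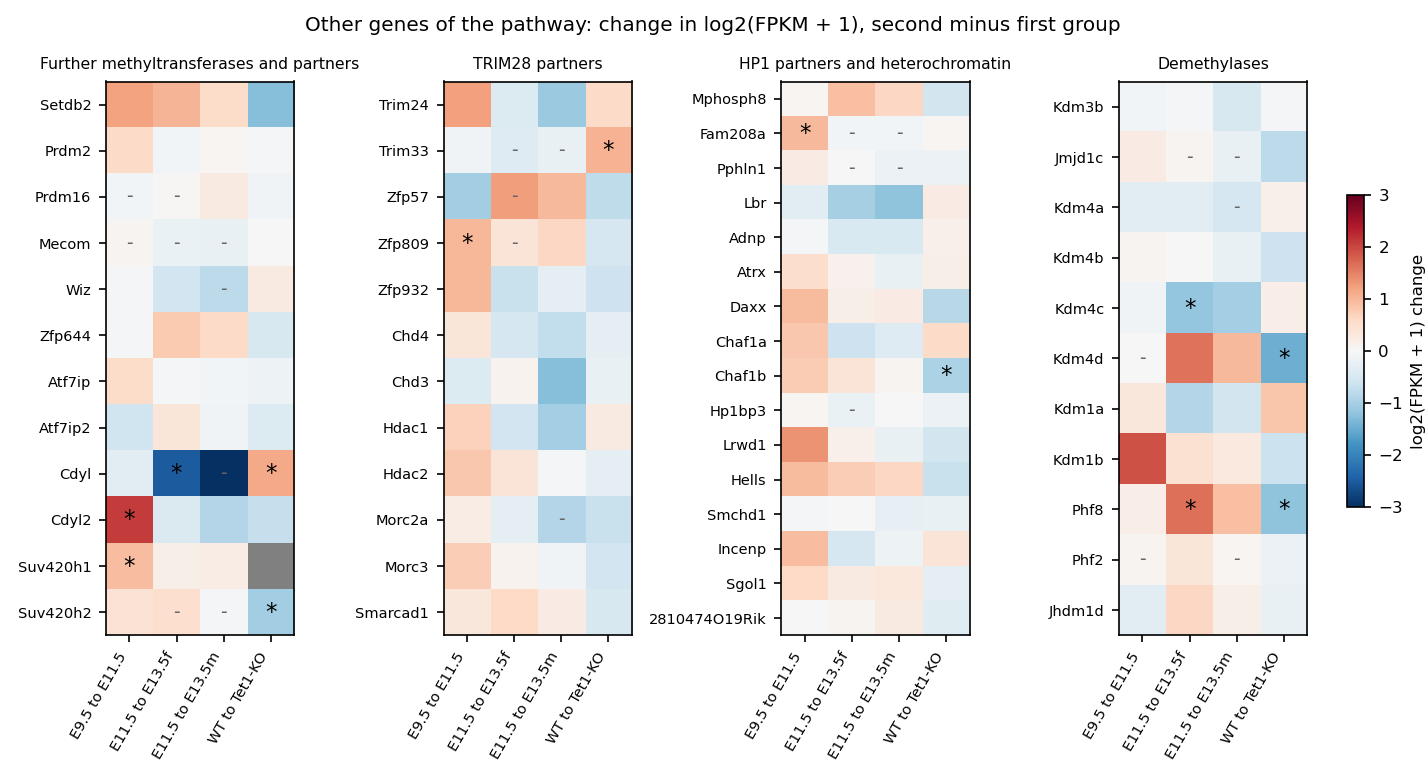
Change in log2(FPKM + 1) of the 51 pathway genes in 4 lists (rows) and 4 comparisons (columns), second minus first group; asterisks mark genes called in the authors' deposited tables, dashes no completed test and grey no row. At most 6 genes carry an asterisk in any comparison, and Cdyl is lower at E13.5f and E13.5m than at E11.5 and higher in Tet1-KO than in WT.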

How the data were processed

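Messenger RNA of mouse primordial germ cells was sequenced by the authors on an Illumina HiSeq, and groups follow the sample titles, ages and genotypes. Build mm9, Bowtie and TopHat 1.3.1 are named in the submitters' processing notes, with Cufflinks and Cuffdiff 1.2.1 for the stage samples and 1.0.3 for the knockout set. Deposited by the authors were 4 tables with 1 FPKM value per group, per the file headers, in which replicates are pooled. They also deposited a p-value and a q-value per row of the stage tables, and a p-value with an FDR in the knockout table. The deposited test statistic of the stage tables is a score, and so is the deposited FDR, since 2182 of its values exceed 1 (maximum 1.06). Annotation, filters and depth are not given in the sources used here.

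Calls are the authors' own at 0.05 over rows with a completed test. Log2 ratios were recomputed from FPKM. Dividing a ratio by the deposited statistic gave its SE; in the knockout table, which has none, the p-value's normal deviate took its place where it exceeded 0.05. Intervals are 95% normal intervals. Centring subtracts a table's median log2 ratio, taken over genes that reach 1 FPKM in both groups. Ranks and medians use changes in log2(FPKM + 1), a scale that understates those of low genes. The centred test and the test of E13.5m against E13.5f were tested on simulated data with 200 changed genes. The simulated noise was normal with the same SEs that the tests use. It therefore cannot show whether those SEs hold for these data. The named genes are the 10 members, pathway genes called in at least 1 table, the 3 nearest profiles of a called member, and Tet1. The members and lists were chosen with earlier results of these data known. Gene symbols were matched as the tables give them, with older symbols where needed; Suv420h1 has no row in the knockout table. Tried as alternatives were centring, a pseudocount of 0.1, a call threshold of 0.01, a Benjamini-Hochberg adjustment made anew, and minimums of 1 FPKM or of 1 in log2 change. Software was Python 3.11.15 with scipy 1.17.1, pandas 2.3.3, numpy 2.4.6 and matplotlib 3.10.9.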

Additional observations from a re-analysis of the deposited data

How the results depend on the processing

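No paired analysis was possible because libraries are pooled in the deposited tables, which give no values of single libraries; leaving out each replicate was not run for the same reason. At a threshold of 0.01 the calls over all genes were 348 from E9.5 to E11.5, 699 from E11.5 to E13.5f, 296 from E11.5 to E13.5m, 371 from WT to Tet1-KO and 11 between E13.5m and E13.5f. At that threshold 2 pathway genes were called from E9.5 to E11.5, and 0 pathway genes and 0 of the 10 genes from WT to Tet1-KO. With a minimum log2 change of 1, 0 of the 10 genes were called from WT to Tet1-KO, since Ehmt1 lay at -0.98.

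Centring left 0 pathway calls from E9.5 to E11.5. From WT to Tet1-KO it left 490 calls (264 higher and 226 lower, against 111 and 899 as deposited), 0 of the 10 genes and 3 pathway genes. The Ehmt1 log2 ratio from WT to Tet1-KO became -0.60 relative to the table's median and lost its call. What lies behind the table's shift was not tested. Centring changed the sign of 8 of 35 tested log2 ratios of the 10 genes: from E9.5 to E11.5 Ehmt1 (-0.011), Ehmt2 (-0.11), Suv39h2 (-0.12), Cbx3 (-0.17) and Kdm3a (-0.10), and from WT to Tet1-KO Setdb1 (0.32), Suv39h2 (0.16) and Cbx5 (0.093). The other 26 kept direction and call, as did all 35 with a minimum of 1 FPKM. With a pseudocount of 0.1 the median change of the 10 genes moved by less than their spread in all 4 comparisons; the pathway lists were not recomputed with it. Depth is unknown, so no counting limit can be given.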

Other observations

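The heterochromatin helicase gene Hells is needed for DNA methylation at repeats. It was at 132 FPKM at E9.5 and 257 at E11.5 (log2 ratio 0.96 ± 0.43, SE). In WT it was at 390 FPKM and in Tet1-KO at 245 (-0.67 ± 0.34, SE). Relative to the medians of these 2 comparisons it was at 0.64 (adjusted p 0.532, centred test) and -0.29 (adjusted p 0.757). From E11.5 its log2 ratio was 0.74 ± 0.39 to E13.5f and 0.62 ± 0.41 to E13.5m (SE). None of these differences was called. The HP1-binding lamin B receptor gene Lbr was at 56.5 FPKM at E11.5 and 27.8 at E13.5f (-1.03 ± 0.48, SE), and at 57.9 and 24.3 in the table of E13.5m (-1.25 ± 0.49, SE), again not called. These 2 genes were chosen after their values were seen.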
